A study of Saccharomyces cerevisiae with 10 samples.

Results

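Genes of budding yeast that changed late after a shift from dextrose to ethanol were found by setting the arrays of 12 h against those of 4 h. The cells were a pool of diploid Saccharomyces cerevisiae strains of the S288c background. Each strain carries a barcode and a pair of proteins fused to fragments of a mouse dihydrofolate reductase, which gives resistance to methotrexate when the proteins meet (barcoded protein-complementation assay, BC-PCA). The pool grew in minimal medium (yeast nitrogen base and ammonium sulfate) with 2% dextrose and was then moved to the same base with methotrexate and 2% ethanol as carbon source, shaken at 30 °C. Total RNA from before the shift (0 h), from 0.5 h and 1 h, and from 4 h and 12 h after it was put on Affymetrix yeast arrays, 2 arrays per time, labelled biological replicates 1 and 2. Of the 10 arrays, the 4 of 4 h and 12 h make the comparison, and the other 6 help to estimate the spread. The 4 h and 12 h arrays share strain pool, ethanol, methotrexate, base medium and temperature and differ in the time since the shift. The sources differ on whether the dextrose culture also held the drug, and carbon source and drug cannot be told apart in what changed since 0 h. All 5449 named genes were compared, each by its brightest probe set. The methods describe 1 pool, and neither they nor the labels say whether the replicates were separate cultures, so that the spread between arrays may be technical in part. An intensity here is on the linear scale of RMA, an array normalization that makes arrays alike, so a change in the total mRNA of a cell would not show. Each array also sums over the pool: fewer cells of a kind and less RNA per cell cannot be told apart.

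Yeast that lose glucose stop dividing for a time, lower the transcripts of glycolysis and of ribosome building, and turn on the genes that let them respire ethanol. Ethanol is oxidized to acetate and acetyl-CoA, which feeds the TCA cycle and, through the glyoxylate cycle and gluconeogenesis, the synthesis of sugars. Cells that resume division start the cycle with the G1 cyclins, copy DNA in S phase, pass G2 and mitosis under the B-type cyclins, and part from their daughters with enzymes made by the daughter. Transcripts of these phases are among the best known periodic messages of yeast. In a culture that is not synchronized, their level can depend on the share of cells in each phase and on the RNA per cell. The arrays do not measure that share.

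Between 4 h and 12 h, 372 of the 5449 genes were higher (6.83% of the genes tested) and 245 were lower (4.5%) by limma with a Benjamini-Hochberg adjusted p under 0.05, together 617 genes (11.3%). Of these, 238 rose and 115 fell by at least 2-fold, and 68 rose and 14 fell by at least 4-fold. The median change over all genes was 0.01 on the log2 scale, and the median standard error (SE) of a change was 0.20. Both 12 h arrays lay above both 4 h arrays for 1533 genes (28.1%) and below both for 1448 (26.6%). The 12 h arrays were the least alike of the 5 times (r = 0.977 across genes, against 0.984 to 0.985), and replicate 1 at 12 h was brighter, with a median intensity over genes of 356 against 321 in replicate 2 and 333 and 325 at 4 h. Whichever of the 4 arrays was left out, 156 of the rises (41.9%) and 48 of the falls (19.6%) were still called. The counts fell most without replicate 2 of 4 h (196 higher and 62 lower) and without replicate 1 of 12 h (198 and 104), and without replicate 1 of 4 h they were 250 and 150.

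**Figure D1:**
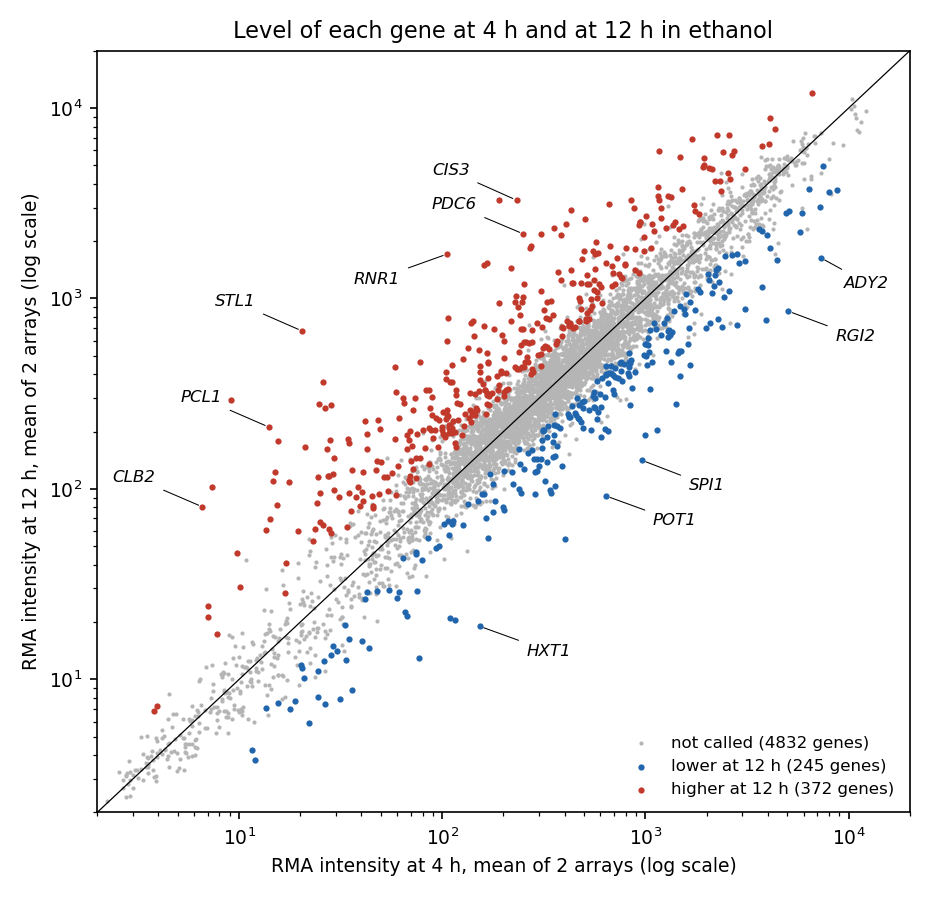
Mean RMA intensity of each of 5449 genes at 4 h (x axis) and 12 h (y axis), both on log scales, each the mean of 2 arrays. Red and blue points are the 372 genes called higher and the 245 called lower at 12 h, grey points the rest, and the line marks equal levels. STL1 and the cyclins PCL1 and CLB2 rise from the dim end of the range, while ADY2 and RGI2 leave the bright end.

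Of the 15 largest rises among genes above the median gene at 12 h, several follow here and the others with their lists. STL1 (YDR536W), the glycerol and proton symporter of the plasma membrane, read 26.6 and 14.2 on the 4 h arrays and 516 and 834 at 12 h (log2 5.07, SE 0.41, adjusted p = 0.000102). Its 4 h values lie above 5.01% of genes, too dim to fix the size of the rise, which was 4.36 on the log2 scale with intensities under 32 raised to 32. At 0, 0.5 and 1 h its mean intensity was 10.1, 16.3 and 15.3. NCA3 (YJL116C), a member of the SUN family of wall proteins, stood at 199 and 182 and then 3087 and 3514 (log2 4.11, SE 0.41, adjusted p = 0.000369). SIM1 (YIL123W), of the same family, went from 96.5 and 116 to 768 and 813 (log2 2.9, SE 0.18, adjusted p = 3.36e-05). These 3 calls held whichever array was left out. PDC6 (YGR087C), a minor pyruvate decarboxylase known to be made under sulfur limitation, rose from 239.8 and 262 to 2136 and 2228 (log2 3.12, SE 0.19, adjusted p = 3.27e-05), with the 2 arrays of each time close together. YHB1 (YGR234W), the flavohemoglobin that detoxifies nitric oxide, and MRH1 (YDR033W), a plasma membrane protein related to Hsp30, rose by 2.82 and 2.83 on the log2 scale. Both had been bright at 0 h (mean 1254 and 1924) and low at 1 h (120.0 and 346).

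Most transcripts of the cell cycle engine rose. Of 23 measured cyclins and cyclin controls, 14 were higher and 1 was lower at 12 h, with a median log2 change of 1.39, against 0.01 over all genes. PCL1 (YNL289W), a G1 cyclin that binds the kinase Pho85, read 12.4 and 15.7 at 4 h and 207 and 215 at 12 h (log2 3.92, SE 0.22, adjusted p = 2.99e-05). CLN1 (YMR199W), a G1 cyclin that drives the start of the cycle with Cdc28, read 65.5 and 50.9 and then 435 and 434 (log2 2.91, SE 0.19, adjusted p = 4.19e-05). In both genes the arrays of each time lay close together and the times far apart. CLN2, a close relative of CLN1, rose by 2.57 and CLN3, the cyclin that acts first in G1, by 1.87 on the log2 scale (adjusted p = 0.000211 and 8.83e-05). CLN3 had stood at means of 90.8, 78.0 and 68.4 at 0, 0.5 and 1 h.

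Among the B-type cyclins of S phase and mitosis, CLB1, CLB2, CLB4, CLB5 and CLB6 rose. CLB6 (YGR109C), an S phase cyclin, read 10.2 and 19.0 at 4 h and 135 and 84.4 at 12 h (log2 2.94, SE 0.32, adjusted p = 0.000561). CLB1 (YGR108W), a mitotic cyclin, read 24.0 and 27.5 and then 394 and 331 (log2 3.81, SE 0.29, adjusted p = 8.55e-05). CLB2 (YPR119W), the main mitotic cyclin, read 6.12 and 7.07 and then 88.9 and 72.1 (log2 3.61, SE 0.23, adjusted p = 4.19e-05). CLB2 was above 1.89% of genes at 4 h and 11.7% at 12 h. SWI5 (YDR146C), the factor that turns on genes at the exit from mitosis, rose from 13.3 and 16.7 to 147 and 97.3 (log2 3.0, SE 0.27, adjusted p = 0.00021). The kinases HSL1 (log2 1.96), CDC5 (1.62) and SWE1 (1.54), which act at the G2 to M step, rose as well. PCL9 and CLB3 were not called, at 0.87 and 0.53 (adjusted p = 0.058 and 0.14). CDC20, which activates the anaphase-promoting complex, fell from 331 and 290.4 to 189 and 138 (log2 -0.94, adjusted p = 0.049), but that call was lost whichever array was left out. Of the 15 calls, 13 held whichever array was left out, and the CLB4 call was lost with any of the 4. The sizes of the dim genes depend on the floor: with intensities under 32 raised to 32, the log2 rise of PCL1 was 2.72, of CLB2 1.32, of CLB6 1.74 and of SWI5 1.9, all still called. Only 7 of the 23 genes remain when the dimmest 25% of genes are dropped, and 1 of those 7 is called.

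**Figure D2:**
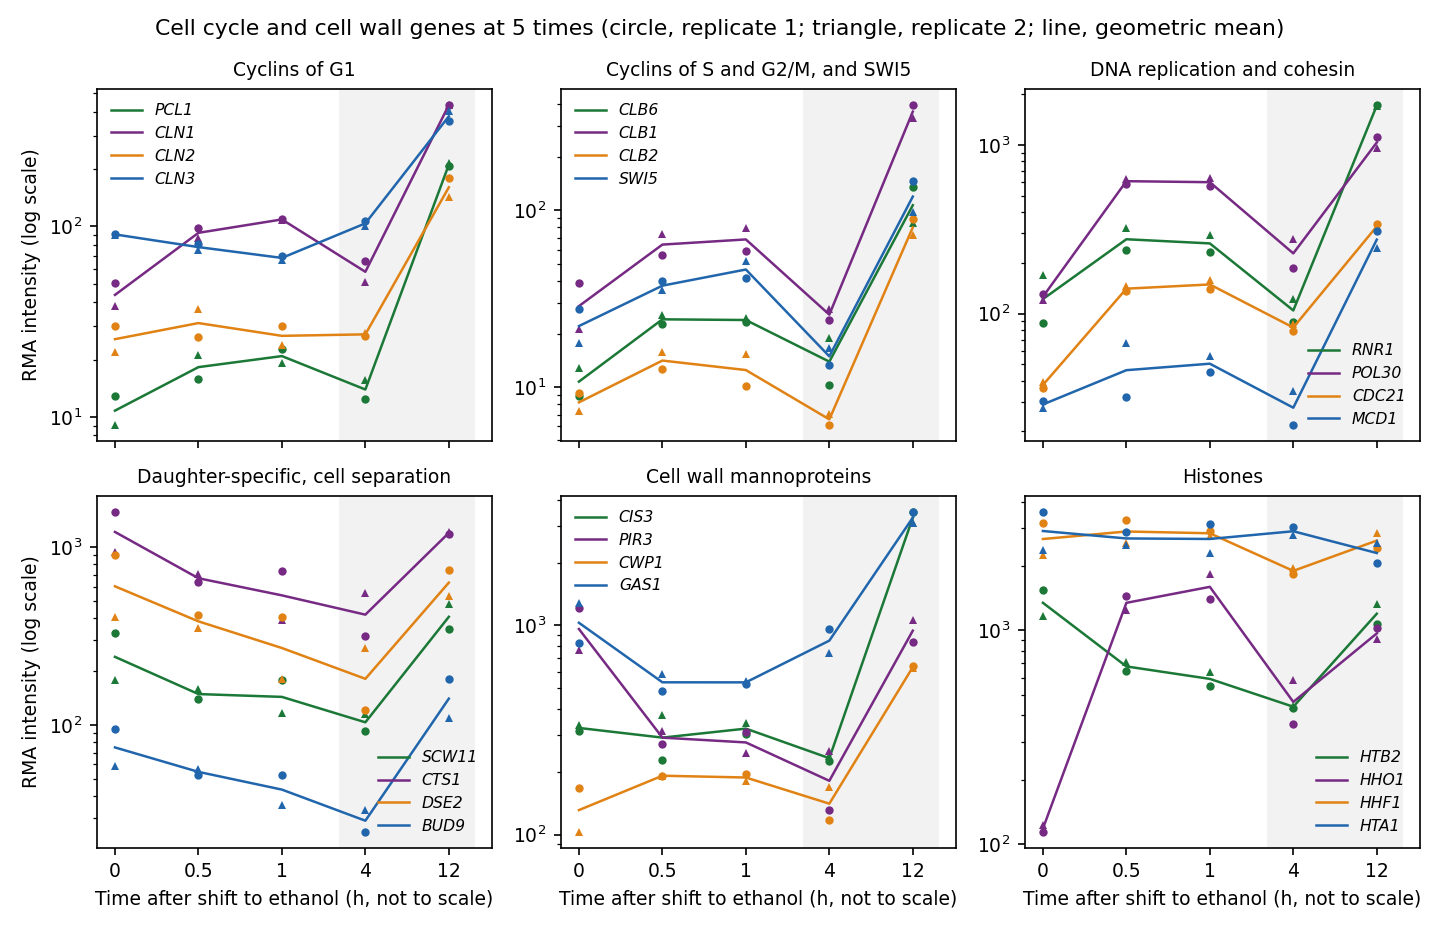
RMA intensity (log scale) of 24 genes at the 5 times (hours since the shift, x axis), with each array as a point and the geometric mean as a line, and 4 h to 12 h shaded. The cyclins, DNA replication and wall genes shown are highest at 12 h or back near their 0 h level, while the histones HHF1 and HTA1 were not called.

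Many genes of DNA synthesis rose, with the large subunit of the enzyme that makes deoxynucleotides in front. Of 39 measured genes of DNA replication and repair in S phase, 21 were higher and none was lower, with a median of 0.69, and 12 of the calls held whichever array was left out. RNR1 (YER070W), the large subunit of ribonucleotide reductase, read 89.6 and 121 at 4 h and 1724 and 1698 at 12 h, a 16.4-fold rise (log2 4.04, SE 0.30, adjusted p = 8.55e-05). Its small subunits changed less, RNR2 by 0.84 and RNR4 by 0.63 (adjusted p = 0.0098 and 0.041), and both calls were lost without replicate 1 of 4 h. The inhibitors of the enzyme did not move alike: HUG1 (YML058W-A) rose from 12.7 and 18.2 to 219 and 137 (log2 3.51, SE 0.36, adjusted p = 0.000385, and log2 2.44 with values under 32 raised to 32), while SML1 was at -0.52 (adjusted p = 0.064) and was not called. CDC21 (YOR074C), the thymidylate synthase, rose from 78.8 and 86.6 to 338 and 319.8 (log2 1.99, SE 0.15, adjusted p = 8.55e-05). POL30 (YBR088C), the sliding clamp PCNA, rose from 187 and 277 to 1119 and 953 (log2 2.18, adjusted p = 0.000234), after 609.6 at 0.5 h and 602 at 1 h. MCD1 (YDL003W), the cohesin subunit that is cleaved at anaphase, rose from 21.9 and 35.0 to 307 and 245 (log2 3.31, adjusted p = 0.000385). The helicase subunits MCM2 and MCM7 were at 0.59 and 0.74 and did not pass the threshold (adjusted p = 0.054 and 0.058).

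Histone genes gave 2 calls. Of 9 measured, 2 were higher, with a median of 0.17. HTB2 (YBL002W), a histone H2B, rose from 434 and 443 to 1070.3 and 1334 (log2 1.45, SE 0.19, adjusted p = 0.00169), which brought it back toward its 0 h level of 1357. HHO1 (YPL127C), the linker histone, rose from 365 and 584 to 1029.9 and 907 (log2 1.07, adjusted p = 0.019), a call that was lost without replicate 1 of either time. HHT2, a histone H3 gene, parted between the 12 h arrays, at 2579 and 3056 and then 714 and 2762, and was not called (log2 -1.0, adjusted p = 0.21). The H3 and H4 genes HHT1 and HHF1 were at 0.4 and 0.47 (adjusted p = 0.15 and 0.17). Such near-identical gene pairs can share signal on an array, and the HHF1 probe set is marked as shared by its probe set name.

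Genes that daughters use to part from their mothers were the list with the highest median. Of 13 measured, 9 were higher and none lower, with a median of 1.52, and all 13 changes were above 0. SCW11 (YGL028C), a glucanase of the daughter wall, read 93.0 and 115 at 4 h and 345 and 477 at 12 h (log2 1.97, SE 0.31, adjusted p = 0.00414). BUD9 (YGR041W), a mark of the bud site, read 25.1 and 33.5 and then 180.4 and 109.7 (log2 2.28, SE 0.31, adjusted p = 0.002). CTS1, the chitinase that dissolves the septum, rose from 317 and 549 to 1188 and 1218 (log2 1.53, adjusted p = 0.024). DSE2 (YHR143W), a daughter-specific glucanase, rose from 122 and 271 to 748 and 534 (adjusted p = 0.049), with the wide gap between its 4 h arrays in its SE of 0.50. DSE1 and ASH1, the latter a repressor that sits in the daughter nucleus, were at 1.1 and 0.89 and were not called (adjusted p = 0.095 and 0.051). Of the 9 calls, 3 held whichever array was left out. Refits with 1 array missing called 3 to 6 genes of the list, 3 without replicate 1 of 4 h and 4 without replicate 1 of 12 h.

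Cell wall mannoproteins split into a larger group that rose and a few that fell. Of 27 measured, 10 were higher and 3 lower, with a median of 0.62. Of the 13 calls, 10 held whichever array was left out, 9 rises and the fall of SPI1. CIS3 (YJL158C), a wall glycoprotein of the Pir family, read 226 and 238 at 4 h and 3489.9 and 3077 at 12 h, the largest rise of the list (log2 3.82, SE 0.22, adjusted p = 2.99e-05). Its relatives PIR1 and PIR3 rose by 1.7 and 2.38 (adjusted p = 0.00191 and 0.00191). CWP1 (YKL096W), a mannoprotein put into the wall late in the cycle, rose from 117 and 168 to 638 and 625 (log2 2.17, SE 0.24, adjusted p = 0.000649). GAS1, the glucan elongase, rose by 1.95 and CWP2 by 1.99. SCW10 (YMR305C), a soluble glucanase outside the list, rose from 139 and 181 to 1349 and 1645 (log2 3.23, SE 0.26, adjusted p = 9.9e-05). The secreted sterol-binding proteins PRY1 (YJL079C) and PRY2 (YKR013W) rose by 2.76 and 2.73, and SRL1 (YOR247W), a mannoprotein, and TOS6 (YNL300W), a predicted wall protein, by 2.79 and 3.21. Against these, SPI1 (YER150W), a wall protein made in stationary phase and weak acid stress, fell from 679 and 1241 to 126 and 157 (log2 -2.71, SE 0.25, adjusted p = 0.00024). The anaerobic mannoprotein TIR2 (-1.18) and the flocculin FLO1 (-1.63) fell at dim levels, and the wall stress sensor MTL1 (YGR023W) fell from 1136 and 1693 to 329 and 233 (log2 -2.33, adjusted p = 0.00105).

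**Figure D3:**
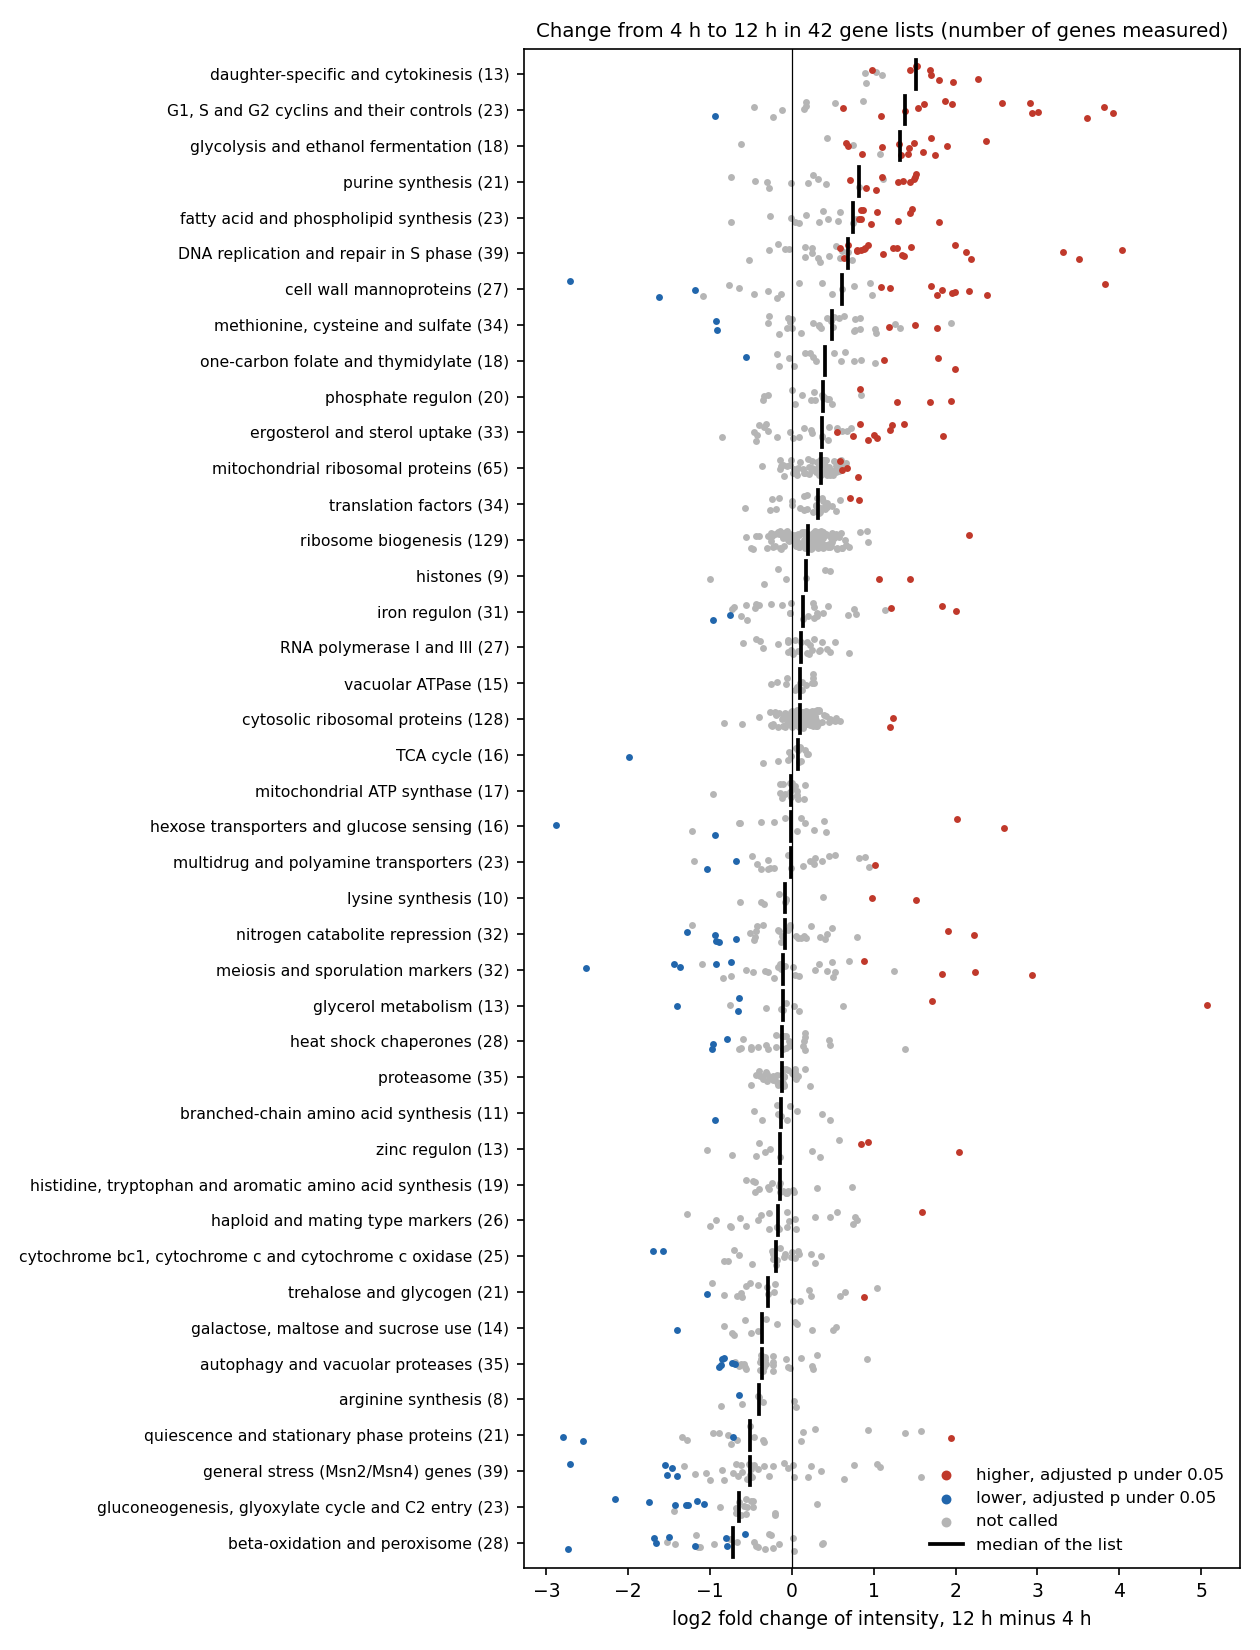
The log2 fold change from 4 h to 12 h (x axis) of the measured members of 42 gene lists, ordered by their median (black bar), with the number of measured genes in parentheses. Red and blue points are genes called higher and lower and grey points the rest. The lists of the cell cycle and of glycolysis stand at the top and those of peroxisomes, ethanol use and stress at the bottom.

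Most genes of glycolysis and fermentation rose late. Of 18 measured, 14 were higher at 12 h than at 4 h and none lower, with a median of 1.32. The same genes had a median of -1.31 at 4 h against 0 h and of -0.20 at 12 h against 0 h. These 3 medians share arrays, so they are not separate evidence. ENO1 (YGR254W), an enolase, read 934 and 1388 at 4 h and 5259 and 6588 at 12 h (log2 2.37, SE 0.22, adjusted p = 0.00026), with a mean of 5689 at 0 h. ENO2 (YHR174W), the other enolase, read 949.7 and 1356 and then 3533 and 4123 (log2 1.75, SE 0.24, adjusted p = 0.00219). PDC1 (YLR044C), the main pyruvate decarboxylase, read 1316 and 1657 and then 4996 and 6026 (log2 1.89, SE 0.26, adjusted p = 0.002). GPM1 (YKL152C), the phosphoglycerate mutase, rose by 1.69, PGK1, the phosphoglycerate kinase, by 1.49, and ADH1, the alcohol dehydrogenase of fermentation, by 1.31. Enolase, the mutase and the kinase also work in gluconeogenesis, while pyruvate kinase (CDC19, log2 1.42) serves the breakdown of sugar alone. Among the first steps, hexokinase HXK2 rose by 1.43 and phosphofructokinase PFK2 by 0.67, while PFK1 was at 0.43 (adjusted p = 0.13). GLK1, the glucokinase used off glucose, was alone below 0, at -0.62 (adjusted p = 0.073), after a rise of 2.76 between 0 h and 4 h. Of the 14 calls, 10 held whichever array was left out.

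Hexose transporters and glucose sensors moved in both directions, 2 of 16 higher and 2 lower, with a median of -0.01. HXT7 (YDR342C), a transporter of high affinity, read 414 and 404 at 4 h and 2593 and 2325 at 12 h (log2 2.59, SE 0.33, adjusted p = 0.00152). Its probe set is marked as shared, so the signal may hold near-identical transporters and is uncertain. HXT2, also of high affinity, rose from 118 and 149 to 428 and 673 (log2 2.02, adjusted p = 0.017), but was called only with all 4 arrays or without replicate 1 of 12 h. The transporters of low affinity HXT1 and HXT3 were lower. HXT1 (YHR094C) fell from 90.4 and 215 to 19.0 and 19.0 (log2 -2.88, SE 0.38, adjusted p = 0.00185), from a mean of 2908 at 0 h. Its 12 h values lie above 5.32% of genes, too dim to fix the size of the fall. HXT3 (YDR345C) fell from 195 and 307 to 127 and 127 (log2 -0.95, adjusted p = 0.027), a call lost without replicate 2 of 4 h or either array of 12 h. HXT5 (YHR096C), the transporter of slow-growing cells, was at 2876 and 3622 and then 1677 and 2549 and was not called (log2 -0.64, adjusted p = 0.13). The glucose sensor SNF3 (-0.64) and the repressor MIG2 (-1.23) were not called either.

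Glycerol genes were divided in the same way. Of 13, 2 were higher and 3 lower, with a median of -0.11. Beside STL1, the glycerol phosphatase GPP2 (YER062C) rose from 535 and 436 to 1893 and 1329 (log2 1.72, SE 0.24, adjusted p = 0.00225), toward a 0 h mean of 2714. GUT2, the mitochondrial dehydrogenase that burns glycerol phosphate, fell (log2 -0.65), as did GCY1 (YOR120W), a glycerol dehydrogenase (log2 -1.41, adjusted p = 0.031 and 0.017), calls that were lost without replicate 2 of 4 h or replicate 1 of 12 h. GUT1, the glycerol kinase that works before Gut2, was at 596 and 589 and then 559.9 and 541 and was not called.

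Genes for the entry of ethanol carbon fell in part. Of 23 genes of gluconeogenesis, the glyoxylate cycle and C2 entry, 7 were lower and none higher, with a median of -0.64 and 22 changes below 0. Their median against 0 h was 4.37 at 4 h and 3.62 at 12 h. Acetate uptake and the carnitine shuttle carried most of the falls. ADY2 (YCR010C), the acetate transporter, read 6797 and 7855 at 4 h and 1655 and 1608 at 12 h (log2 -2.16, SE 0.26, adjusted p = 0.00105). The 3 carnitine acetyltransferases fell side by side, YAT2 (YER024W) from 5589 and 5935 to 1651 and 2797 (log2 -1.42, SE 0.25), YAT1 (log2 -1.16) and CAT2 (log2 -1.08). ACS1, the acetyl-CoA synthetase used off glucose, fell from 8472 and 9163 to 2916 and 4545 (log2 -1.27, SE 0.21, adjusted p = 0.00553). MDH2 (YOL126C), the cytosolic malate dehydrogenase, fell from 7250.0 and 7192 to 2348 and 3723 (log2 -1.29, adjusted p = 0.0098). SIP4 (YJL089W), an activator of gluconeogenic genes, fell from 2522 and 2238 to 654 and 764 (log2 -1.75, adjusted p = 0.00742), while CAT8, which acts before it, was at -0.69 (adjusted p = 0.13). Calls for ADY2, YAT2 and ACS1 held whichever array was left out, and 3 to 9 genes of the list were called with any 1 array missing, 3 of them without replicate 1 of 12 h and 4 without replicate 2 of 4 h.

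The enzymes that define growth on ethanol stayed bright. PCK1 (YKR097W), the first enzyme of gluconeogenesis, read 10770.0 and 10617 at 4 h and 8928 and 9674 at 12 h (log2 -0.2, SE 0.48, adjusted p = 0.83). ADH2 (YMR303C), the alcohol dehydrogenase that oxidizes ethanol, read 11240.0 and 11182 and then 6935 and 8074 (log2 -0.58, SE 0.44, adjusted p = 0.43). ICL1, the isocitrate lyase of the glyoxylate cycle, read 10213 and 11774 and then 6068 and 9339 (log2 -0.54, adjusted p = 0.45). None of the 3 was called. The SE pools the spread within all 5 times, and for PCK1 and ADH2 it is wide beside the arrays shown. A missing call therefore does not show an unchanged level. Each of the 3 genes was lower on both 12 h arrays than on both 4 h arrays, which was so for 26.6% of all genes. These signals lie near the top of the scale, where the brightest value on a 12 h array was 13339.5.

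The TCA cycle and the respiratory chain gave few calls. In the TCA cycle, 1 of 16 genes was lower and none higher, with a median of 0.08. That gene was CIT3 (YPR001W), a mitochondrial isozyme of citrate and methylcitrate synthase, which fell from 2059 and 3614 to 504 and 944 (log2 -1.98, SE 0.41, adjusted p = 0.014), a call lost without replicate 2 of 4 h or replicate 1 of 12 h. CIT1, the main citrate synthase, was at 5349 and 6296 and then 5619.9 and 7768 (log2 0.19). None of 17 ATP synthase genes was called by limma, and 1 had an unadjusted p under 0.05. Over all 5449 genes, 1510 had an unadjusted p under 0.05. Of 25 genes of cytochrome bc1, the cytochromes c, cytochrome c oxidase and the NADH and lactate dehydrogenases, 2 were lower. NDE2 (YDL085W), an external NADH dehydrogenase, fell from 3471 and 4004 to 1163 and 1139 (log2 -1.7, SE 0.29, adjusted p = 0.00642). COX5B (YIL111W), the oxidase subunit used when oxygen is low, fell from 221 and 351 to 107 and 81.6 (log2 -1.58, adjusted p = 0.0059), while its aerobic counterpart COX5A was at 3964 and 4073 and then 3749 and 4533.

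Fatty acid oxidation, which in yeast takes place in the peroxisome, was the list with the lowest median, -0.72. Of 28 genes of beta-oxidation and the peroxisome, 8 were lower and none higher. POT1 (YIL160C), the thiolase of the last step, read 432 and 848 at 4 h and 102 and 81.3 at 12 h (log2 -2.73, SE 0.58, adjusted p = 0.017), after 3224 at 1 h. POX1 (YGL205W), the oxidase of the first step, read 473 and 736 and then 171 and 204 (log2 -1.66, SE 0.36, adjusted p = 0.017). CTA1 (YDR256C), the peroxisomal catalase, read 837 and 1261 and then 237 and 432 (log2 -1.68, SE 0.45, adjusted p = 0.04). In these 3 genes replicate 2 was the brighter array at 4 h. FOX2, the enzyme of the middle steps, was at -1.17 and DCI1, a relative of ECI1, at -1.52, and neither was called (adjusted p = 0.069 and 0.057), while ECI1 (YLR284C), an enoyl-CoA isomerase, fell (log2 -1.5, adjusted p = 0.028). Import factors PEX5 (-0.79) and PEX14 (-0.8) fell less. None of the 8 calls held whichever array was left out, and all 8 were lost without replicate 2 of 4 h. Refits with 1 array missing can call other members of the list. They called 5 genes lower without replicate 1 of 4 h and 3 without replicate 2 of 12 h. Without replicate 2 of 4 h, and without replicate 1 of 12 h, they called 1 each.

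**Figure D4:**
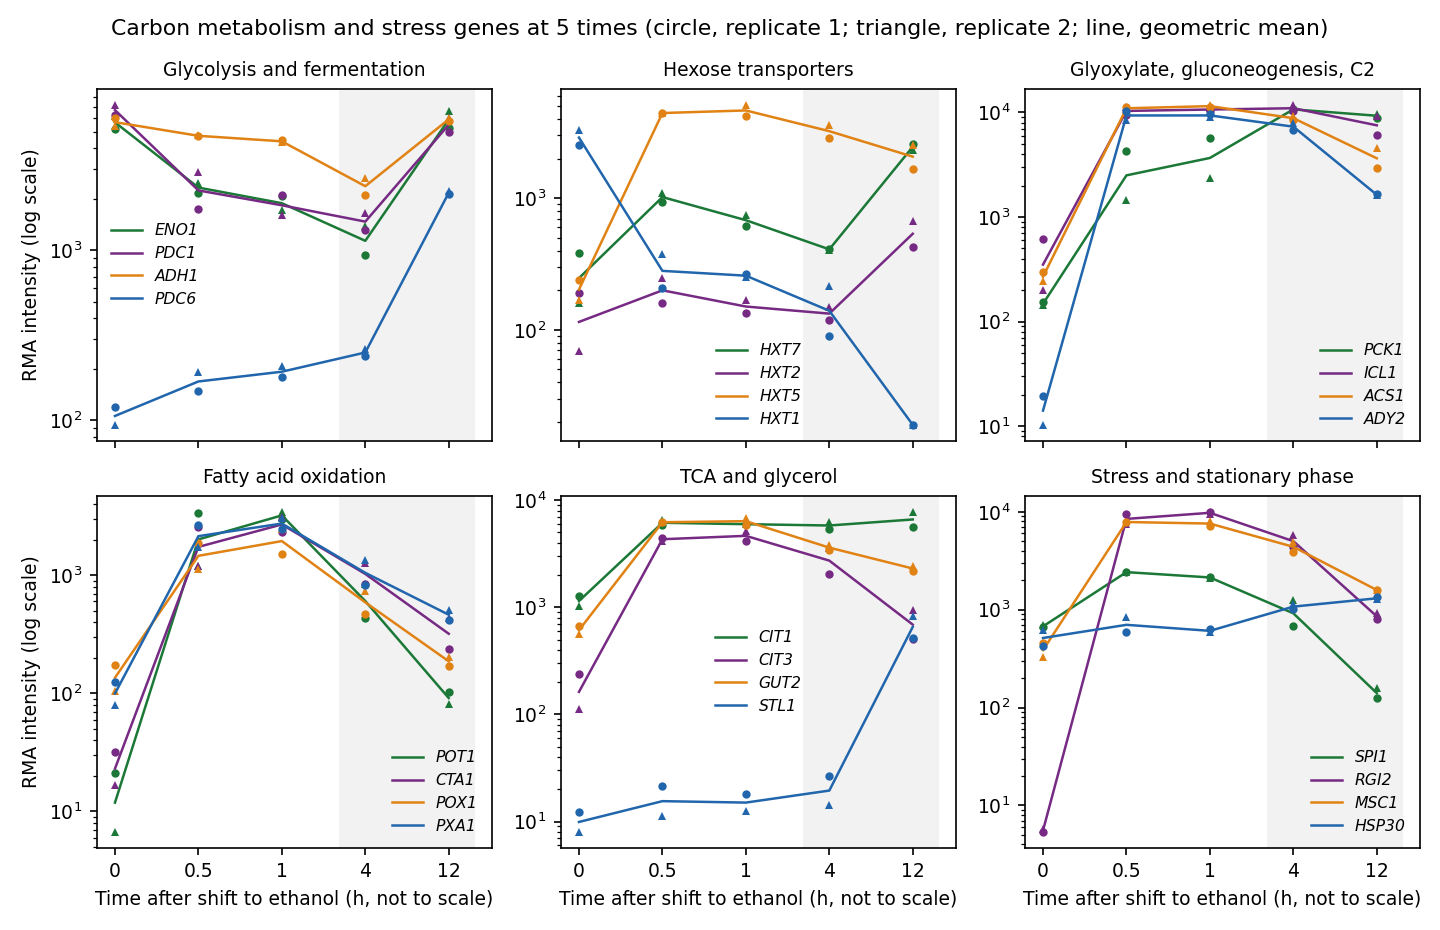
RMA intensity (log scale) of 24 genes of carbon metabolism and stress at the 5 times (hours since the shift, x axis), with each array as a point, the geometric mean as a line, and 4 h to 12 h shaded. ENO1, PDC1 and ADH1 return to near their 0 h level, PCK1, ICL1 and CIT1 stay high, and POT1, ADY2, RGI2 and SPI1 fall.

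Stress and stationary phase genes had medians below 0 and a few sharp falls. Of 39 genes of the general stress response that Msn2 and Msn4 drive, 5 were lower and none higher, with a median of -0.51. SPI1 fell most, followed by PHM7 (YOL084W) at log2 -1.54, SOL4 (YGR248W), a 6-phosphogluconolactonase, at -1.53, and MSC1 (YML128C), which read 3878 and 4957 at 4 h and 1601 and 1575 at 12 h (log2 -1.47, SE 0.20, adjusted p = 0.00191). Calls for SPI1 and MSC1 held whichever array was left out, and the count was 2 each without replicate 2 of 4 h and without replicate 1 of 12 h and 8 without replicate 1 of 4 h. Of 21 genes of quiescence and stationary phase, 3 were lower and 1 was higher, with a median of -0.51. RGI2 (YIL057C), a protein of energy metabolism under respiratory growth, had been nearly silent at 0 h (5.56) and fell from 4344 and 5773 to 797 and 917 (log2 -2.55, SE 0.19, adjusted p = 8.55e-05). SPG1 (YGR236C), needed in stationary phase at high temperature, fell from 269 and 533 to 54.5 and 54.6 (log2 -2.8, adjusted p = 0.01), a call lost without replicate 2 of 4 h or replicate 1 of 12 h. The riser was ARO10 (YDR380W), a decarboxylase of the breakdown of aromatic amino acids (1.95, adjusted p = 0.0041). HSP30 (YCR021C), a plasma membrane heat shock protein, was at 1004 and 1149.5 and then 1344 and 1270.4 (log2 0.28, adjusted p = 0.45), and FMP45 (YDL222C), an eisosome protein, at 366 and 842 and then 178 and 269.8 (log2 -1.34, adjusted p = 0.086), and neither was called. The FMP45 relative YNL194C fell (log2 -2.36), as did its neighbour YNL195C (log2 -1.88, adjusted p = 0.00024 and 0.00098).

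Other upkeep genes changed by smaller amounts. Autophagy and vacuolar proteases had 6 of 35 lower and none higher (median -0.37). The largest fall was PAI3 (YMR174C), the inhibitor of proteinase A (-0.89, adjusted p = 0.047), followed by APE3 (YBR286W), a vacuolar aminopeptidase (-0.87), and ATG40 (YOR152C), a receptor for the removal of endoplasmic reticulum (-0.85). None of the 6 calls held whichever array was left out. Heat shock chaperones had 3 of 28 lower, SSA3 (YBL075C), HSP42 (YDR171W) and FES1 (YBR101C), at log2 -0.97, -0.96 and -0.79, and none of these calls held whichever array was left out. In trehalose and glycogen metabolism, ATH1 (YPR026W), the acid trehalase, was the 1 gene of 21 that fell (log2 -1.04, a call lost without replicate 2 of 4 h or replicate 1 of 12 h), and PGM1 (YKL127W), a phosphoglucomutase, the 1 that rose (0.89). None of 35 proteasome genes was called by limma (2 at an unadjusted p under 0.05), nor any of 15 genes of the vacuolar ATPase (0). Of all 5449 genes, 1510 were under that unadjusted threshold.

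Part of the lipid synthesis genes rose. Of 23 genes of fatty acid and phospholipid synthesis, 10 were higher and none lower, with a median of 0.75. FAS2 (YPL231W), the alpha subunit of fatty acid synthase, read 612 and 528 at 4 h and 2023 and 1917 at 12 h (log2 1.79, SE 0.16, adjusted p = 0.000234). FAS1 (YKL182W), its beta subunit, read 1129 and 879 and then 2768 and 2662 (log2 1.45, SE 0.17, adjusted p = 0.000863). The elongases ELO2 and ELO3, which make the very long chains of sphingolipids, rose by 1.47 and 1.29, the carboxylase ACC1 by 0.84 and the desaturase OLE1 by 0.85. Calls for FAS1, FAS2, ELO2 and ELO3 held whichever array was left out. The count was 5 without replicate 2 of 4 h and 6 without replicate 1 of 12 h. Of 33 genes of ergosterol synthesis and sterol uptake, 10 were higher and none lower, with a median of 0.37. ERG3 (YLR056W), the C-5 desaturase, rose from 609 and 391 to 1890.3 and 1642 (log2 1.85, SE 0.26, adjusted p = 0.00225), and ERG4 (YGL012W), the last enzyme of the path, from 592 and 443 to 1264 and 1385 (log2 1.37, SE 0.29, adjusted p = 0.015). Only the ERG3 call held whichever array was left out, with 1 call in the list without replicate 1 of 12 h, 2 without replicate 2 of 4 h, and 6 without each of the others.

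Of 21 genes of purine synthesis, 10 were higher and none lower, with a median of 0.82. ADE1 (YAR015W), an enzyme in the middle of the path, read 1192 and 1136 at 4 h and 3193 and 3408 at 12 h (log2 1.5, SE 0.20, adjusted p = 0.00193). ADE17 (YMR120C), which closes the ring with a folate carbon, read 1741 and 2130.1 and then 5195 and 5691 (log2 1.5, SE 0.33, adjusted p = 0.019). IMD3 (YLR432W), an IMP dehydrogenase on the way to GMP, read 1105 and 783 and then 2639 and 2431 (log2 1.45, SE 0.22, adjusted p = 0.00301). The ADE1 and IMD3 calls held whichever array was left out and the ADE17 call did not. ADE4, the first enzyme, was at 1.12 and was not called (adjusted p = 0.091). The count was 4 without replicate 1 of 12 h and 5 without replicate 2 of 4 h. Of 18 genes of folate carbon and thymidylate, 3 were higher and 1 was lower, with a median of 0.41. Beside CDC21 these were MTD1 (YKR080W), a folate dehydrogenase, from 836 and 912 to 3032 and 2974 (log2 1.78, SE 0.19, adjusted p = 0.000558), and SHM2 (YLR058C), the serine hydroxymethyltransferase of the cytosol (1.13, adjusted p = 0.039). FOL2 (YGR267C), the first enzyme of folate synthesis, was lower (-0.56, adjusted p = 0.033). Both of these last calls were lost whichever array was left out. Dihydrofolate reductase, the target of methotrexate, regenerates the folate that Cdc21 uses up, and both times were sampled in the drug.

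Ribosome genes gave few calls. Of 128 cytosolic ribosomal protein genes, 2 were higher and none lower, with a median of 0.10. One was ASC1 (YMR116C), a scaffold protein on the small subunit, which rose from 2173 and 1932 to 5223 and 4437 (log2 1.23, SE 0.18, adjusted p = 0.00288), and the other RPS22B (1.19), whose call did not hold whichever array was left out. Of 129 ribosome biogenesis genes, 1 was higher, with a median of 0.19. That gene was DBP2 (YNL112W), an RNA helicase, at 229.6 and 276 and then 1565 and 809 (log2 2.16, SE 0.35, adjusted p = 0.00453). NSR1 (YGR159C), a nucleolar protein of rRNA processing, was at 736 and 663 and then 1536 and 1160.1 and was not called (log2 0.93, SE 0.30, adjusted p = 0.079). None of 27 genes of RNA polymerases I and III was called by limma (0 at an unadjusted p under 0.05, against 1510 of all 5449 genes). The translation factor list had 2 of 34 higher, TEF4 (YKL081W) and EFB1 (YAL003W), which serve elongation factor 1, by 0.82 and 0.71, calls that did not hold whichever array was left out. HEF3 (YNL014W), a second elongation factor 3 outside the list, fell from 1284 and 1665 to 368 and 415 (log2 -1.9, SE 0.25, adjusted p = 0.00181). Mitochondrial ribosomal proteins had 4 of 65 higher, near the 6.83% of all genes. Their median was 0.35, against 0.01 over all genes, with 56 of the 65 changes above 0. These were small: the largest, MRPL32 (YCR003W), was 0.81, and none of the 4 calls held whichever array was left out.

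Amino acid and nutrient genes changed gene by gene. In lysine synthesis, LYS9 (YNR050C) and LYS4 (YDR234W) of 10 genes rose by 1.51 and 0.98. No other gene of that list was called, and its median was -0.08, with 7 of the 10 changes below 0. In arginine synthesis ARG3 (YJL088W) of 8 genes fell (log2 -0.65). None of 19 genes for histidine, tryptophan and other aromatic amino acids was called by limma. In that list 4 had an unadjusted p under 0.05, against 1510 of all 5449 genes. BAT2 (YJR148W), the cytosolic branched-chain transaminase, fell (log2 -0.94), the only call among 11 genes of that path. The LYS4, ARG3 and BAT2 calls were lost without replicate 2 of 4 h or replicate 1 of 12 h. Methionine and sulfate genes had 3 of 34 higher and 2 lower, with a median of 0.49. These counts are near the shares over all genes, 6.83% higher and 4.5% lower. SAM2 (YDR502C), an S-adenosylmethionine synthetase, read 726 and 371 at 4 h and 1984 and 1577 at 12 h (log2 1.77, SE 0.36, adjusted p = 0.013). The 4 h arrays parted widely in this list, as in MET3, the ATP sulfurylase, with 908 and 201 at 4 h against 1673 and 1618 at 12 h, which was not called (log2 1.95, SE 0.61, adjusted p = 0.074). None of the 5 calls held whichever array was left out.

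Transport of nitrogen compounds went both ways. Of 32 genes under nitrogen catabolite repression, 2 were higher and 5 lower, with a median of -0.08. OPT2 (YPR194C), an oligopeptide transporter, rose from 54.4 and 73.2 to 345 and 253 (log2 2.23, SE 0.26, adjusted p = 0.000865), and DUR3 (YHL016C), the urea transporter, from 208 and 266 to 1102 and 705 (log2 1.91, adjusted p = 0.00583), a call lost without replicate 1 of 12 h. PUT4 (YOR348C), the proline permease, fell from 2189 and 2704 to 849 and 1176 (log2 -1.28, SE 0.20, adjusted p = 0.00401). ATO3 (YDR384C), an ammonium exporter of the same family as Ady2, fell from 3840.0 and 4013 to 797 and 744 (log2 -2.35, SE 0.18, adjusted p = 8.83e-05), close to its mean of 812 at 0 h. In the iron regulon 3 of 31 rose and 2 fell, counts near the shares over all genes (6.83% higher and 4.5% lower). FET3 (YMR058W), the multicopper oxidase of iron uptake, rose from 509.6 and 231 to 1350.5 and 1399 (log2 2.0, SE 0.54, adjusted p = 0.045), its 4 h arrays again far apart, and CCC1 (YLR220W), which stores iron in the vacuole, fell (log2 -0.96). None of these 5 iron calls held whichever array was left out. In the zinc regulon 3 of 13 rose, against 6.83% of all genes, IZH4 (YOL101C) by 2.04, ZRT2 (YLR130C), a zinc transporter, by 0.93 and IZH2 (YOL002C) by 0.85. The regulon as a whole did not rise: its median was -0.14, with 7 of the 13 changes below 0. The lowest was ZAP1, at -1.04, which was not called (adjusted p = 0.070). In the phosphate regulon 4 of 20 rose, led by PHM6 (YDR281C) from 94.6 and 76.5 to 302 and 357 (log2 1.95, adjusted p = 0.00098), while the acid phosphatase PHO5 (YBR093C) rose by 0.84. The IZH2 and PHO5 calls were lost without either replicate of 4 h or replicate 1 of 12 h. Of 23 multidrug and polyamine transporter genes and their kin, ICT1 (YLR099C) rose by 1.01, and the pumps PDR15 (YDR406W) and YOR1 (YGR281W) fell (log2 -1.03 and -0.69), calls lost without replicate 1 of either time. Among 14 genes for galactose, maltose and sucrose only GAL7 (YBR018C) was called, lower and dim, at 32.9 and 34.4 and then 11.8 and 13.6, and that call was lost when intensities under 32 were raised to 32.

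The pool was made of diploids, and markers of other cell types that it could hold were measured beside it. Of 26 haploid and mating type markers, 1 was called, higher, and the median change was -0.17. MF(ALPHA)1 (YPL187W), the alpha factor gene, read 6.86 and 7.17 at 4 h and 22.4 and 19.9 at 12 h (log2 1.59, adjusted p = 0.00288), above 2.02% and 5.63% of genes, and the call was lost when intensities under 32 were raised to 32. Over the list the median intensity was 59.2 at 4 h and 51.3 at 12 h, against 88.1 at 0 h. STE2, the pheromone receptor of a cells, was at 77.8 and 51.5 at 4 h and 77.7 and 41.3 at 12 h, and the a-factor gene MFA1 at 96.0 and 66.2 and then 68.4 and 52.7. Of 32 markers of meiosis and sporulation, 4 were higher and 5 lower, with a median of -0.11 and a median intensity of 32.9 at 4 h and 29.9 at 12 h. Only 3 of these calls held whichever array was left out. Calls for SPS1, SPS4 and SPO74 were lost when intensities under 32 were raised to 32. SPS100 (YHR139C), a spore wall protein, fell from 908 and 1383 to 257 and 150.1 (log2 -2.51, SE 0.43, adjusted p = 0.00611). The list also holds CLB6 and the wall enzyme GAS2 (YLR343W), which rose, the latter a call lost without replicate 1 of 12 h. IME1, the inducer of meiosis, differed more between replicates than between times, at 177 and 689 and then 115 and 331, and was not called (log2 -0.84, adjusted p = 0.41). NDT80, which commits cells to meiosis, was at 137 and 112 and then 127 and 190.1. The part of haploid or sporulating cells in the changes above was not tested.

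The late changes were set beside those of the first 0.5 h, which use other arrays. At 0.5 h, 1642 genes were higher than at 0 h (30.1%) and 1784 lower (32.7%). Of the 372 genes that rose between 4 h and 12 h, 152 had fallen at 0.5 h (40.86% of the late rises and 8.52% of the early falls), and 96 had risen (25.81% and 5.85%). Of the 245 that fell late, 141 had risen at 0.5 h (57.55% of the late falls and 8.59% of the early rises), and 56 had fallen (22.86% and 3.14%). Over all genes 32.7% had fallen and 30.1% had risen at 0.5 h, and no test was run on the difference. Across all 5449 genes the early and late changes had a Pearson r of -0.26 and a Spearman rho of -0.24, a description over genes that are not independent and with no array in common. RGI2 (early 10.57, late -2.55), ADY2 (9.37 and -2.16) and POT1 (7.41 and -2.73) were examples of an early rise and a late fall on the log2 scale. DBP2 (-3.95 and 2.16), MRH1 (-2.34 and 2.83) and ENO1 (-1.28 and 2.37) ran the other way. RGI2, ADY2 and POT1 had mean intensities of 5.56, 14.8 and 13.8 at 0 h, too dim to fix the size of their early rises. HXT1 fell at both steps (-3.36 and -2.88). STL1 (0.65), CIS3 (-0.15) and CLN3 (-0.22), by contrast, were not called at 0.5 h, and their rise was seen late.

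**Figure D5:**
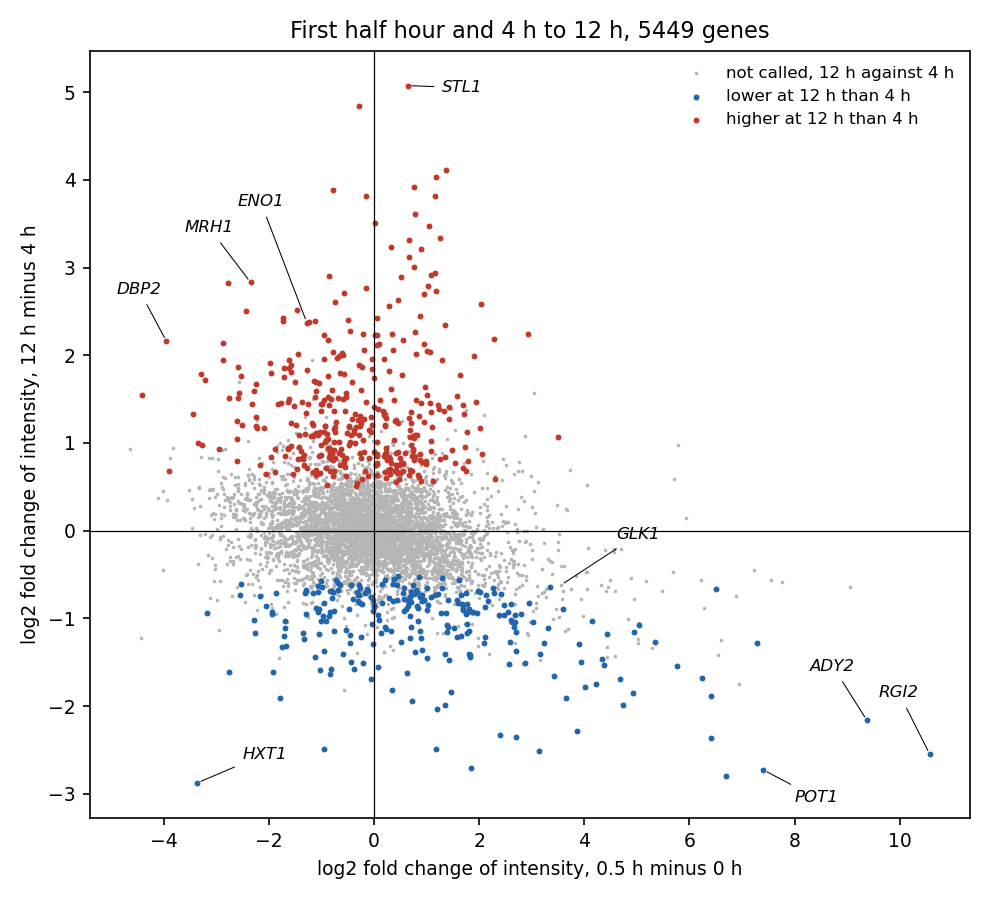
The log2 fold change of each of 5449 genes between 0 h and 0.5 h (x axis) and between 4 h and 12 h (y axis). Red and blue points are genes called higher and lower at 12 h than at 4 h, and grey points the rest. RGI2, ADY2 and POT1, with large early rises from dim 0 h levels, lie below 0 on the late axis.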

How the data were processed

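The intensity values were deposited by the authors as linear probe set levels of 10 Affymetrix arrays, made with MAS 5.0 for the scans and RMA for background, normalization and summary (no version is given in the sources used here). The submitters' labels put 2 arrays in each time. The study's methods leave 1 h out of their list of times, and its results and the labels give it. Of 5716 probe sets, 5498 had 1 gene and 218 none. The brightest probe set stood for each of 5449 genes, and 12 symbols were updated. For 115 genes the probe set may read other sequences. All columns were mapped to samples.

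Log2 intensities were fitted with limma 3.58.1 (R 4.3.3), 1 mean per time over all 10 arrays, and the contrast of 12 h with 4 h was moderated with eBayes. p-values were Benjamini-Hochberg adjusted over all 5449 genes at a threshold of 0.05, and measure only the spread between these arrays. Fold changes are of geometric means. Arrays carry no read depth, so the number of arrays limits the precision. The script was tested on simulated data. Figures were drawn with Python 3.11.15.

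The members and the 42 gene lists were chosen with earlier results of these data known. The naming rule took the 15 largest rises and 15 largest falls among called genes. Their arrays of the higher time had to lie above the array median. From each list it took up to 4 called members with the largest change and up to 2 uncalled with the smallest adjusted p. It also took 10 genes whatever their change (HXT1, HXT3, HXT5, HSP30, FMP45, ADY2, ADH2, PCK1, ENO2 and NSR1). Not every gene under the rule is described above. Among the largest falls, YLR152C (log2 -1.81) and KTR5 (log2 -1.69) are not, and neither call held whichever array was left out. Genes outside the rule were chosen after their values were seen. Alternatives changed scaling, the treatment of dim genes, the arrays fitted, the variance model, the probe set rule and the fold minimum, used the replicate number as a block, or left out each array. Sequences and promoter motifs were not analysed here.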

Additional observations from a re-analysis of the deposited data

How the results depend on the processing

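No named gene that was called, in the main fit or under the alternative, changed direction (the 2-fold minimum was run on counts only). Changes of direction in genes called in neither were not counted. The median change over all genes, 0.009, was -0.032 with array medians made equal, -0.031 with quantile normalization and -0.051 without replicate 1 of 12 h. Of all genes, 372 were higher and 245 lower, and leaving out 1 array of 4 h or 12 h gave 196 to 406 higher and 62 to 262 lower. A fit on only the 4 h and 12 h arrays, with fewer degrees of freedom, gave 243 and 110, and a 2-fold minimum 238 and 115. No source says what a replicate number shares. The differences between replicates 1 and 2 had correlations of 0.20 to 0.56 for 8 of the 10 pairs of times. For 4 h with 12 h, the times compared here, the correlation was 0.44. It was 0.03 and 0.08 for 0 h with 4 h and with 12 h. The sources give no pairing and the main fit took none, so an effect shared by a replicate number would stay in its spread. With the replicate number as a block, 59 more named genes were called and none was lost, among them GLK1, SNF3, MIG2, DCI1, NSR1, ADE4, PCL9, MCM2, MCM7, ASH1, DSE1 and SML1, 580 were higher and 486 lower, the early falls with a late rise numbered 263 and the early rises with a late fall 269, beta-oxidation had 14 lower and general stress 11. Leaving out 1 array gave 71 to 180 early falls with a late rise (152 with all) and 31 to 121 early rises with a late fall (141), and a 2-fold minimum 66 and 63. Leaving out 1 array gave 13 to 14 higher cyclins, 13 to 22 replication genes, 10 to 10 wall genes, 3 to 6 daughter genes, 10 to 13 glycolysis genes, 4 to 8 purine genes, 5 to 9 fatty acid genes and 1 to 6 ergosterol genes, and 1 to 5 lower beta-oxidation, 3 to 9 gluconeogenesis and 2 to 8 general stress genes. Without the dimmest 25% of genes 1 cyclin was higher, since 7 of 23 were then tested. Raising intensities under 32 to 32 gave a refit with 4 lower beta-oxidation, 3 lower general stress and 4 higher daughter genes, which need not all be among the main calls. Only the 4 h and 12 h arrays gave 3 general stress, 6 ergosterol and 5 fatty acid genes. A variance trend gave 13 lower beta-oxidation genes, and a 2-fold minimum 5 of them, 5 ergosterol, 5 fatty acid and 12 replication genes. Of 320 named genes, 241 kept their side of the threshold without replicate 2 of 4 h, 232 without replicate 1 of 12 h, 253 without replicate 1 of 4 h and 269 without replicate 2 of 12 h. The causes were not tested. The search for promoter motifs was not run, and with only the 4 h and 12 h arrays no early change could be had.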

Other observations

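The genes named here were chosen because they had risen between 4 h and 12 h, so they show nothing of how other genes of their kind moved. PLM2 (YDR501W), a forkhead protein made in G1, read 4.70 and 9.93 at 4 h and 119.9 and 84.6 at 12 h (log2 3.88, SE 0.53, limma adjusted p = 0.00191), and its 4 h values are too dim to fix the size, which was 1.65 with intensities under 32 raised to 32. The repressors YOX1 (YML027W) and YHP1 (YDR451C), which act on genes of the M to G1 step, rose by 3.48 and 2.45 on the log2 scale, and NRM1 (YNR009W), which shuts off the G1 factor MBF, by 3.33 (adjusted p = 2.99e-05, 0.000385 and 2.99e-05). CHS2 (YBR038W), the chitin synthase of the primary septum, rose from 24.4 and 31.3 to 206 and 156 (log2 2.7, adjusted p = 0.000129), and HOF1 (YMR032W), a protein of the contractile ring, by 2.27. FKS1 (YLR342W), the catalytic subunit of glucan synthase, rose by 1.57, EXG1 (YLR300W), an exoglucanase, by 2.51, and ECM33 (YBR078W), a GPI-anchored wall protein, by 2.25.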
